A study of Mus musculus with 12 samples.

Results

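The microRNA genes of the Mir297, Mir466, Mir467 and Mir669 families were followed in mouse retina, in 6 diabetic and 6 control animals. They were taken by gene symbol from the platform annotation of the array table, which gave 25 of the 24570 named genes. Of the 25, 2 belonged to Mir297, 8 to Mir466, 4 to Mir467 and 11 to Mir669. The families were singled out because Mir669m-1 had been noted for its higher values in the diabetic retinas of these same arrays. That difference is therefore given as a description, and a test of it would use the values that chose it. Members past the test across all genes are given as a count beside the share of all genes past it, and nothing is read from that count.

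The diabetic group was made of male C57BL6/J mice, called outbred in the labels, that received 1 intraperitoneal dose of streptozotocin, 160 mg/kg. Streptozotocin is toxic to the insulin-producing cells of the pancreas. The animals were 8 weeks old at injection and weighed 24 to 26 g. Hyperglycemia, taken as more than 15 mM glucose in blood, was checked 7 days after it. The control group was made of normoglycemic, non-diabetic animals of the same strain, for which no injection is recorded. Retinas of both groups were taken at 6 weeks, which the sample descriptions count from the induction of diabetes. The series text instead gives 6 weeks as the age of the diabetic animals, which contradicts the injection at 8 weeks. Each animal gave 1 array of whole retina.

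MicroRNAs are cut as hairpins from longer transcripts and matured to short RNAs that guide Argonaute proteins to messenger RNAs, which they recognise mainly through the seed near the 5′ end. In mouse, a large cluster of such hairpins lies in an intron of Sfmbt2, a polycomb-group gene that is imprinted in the placenta and its trophoblast cells. The cluster arose by repeated duplication, and its hairpins fall into a few families of near-identical copies. RefSeq (GRCm38.p6) places 71 genes of the 4 families inside Sfmbt2, 29 of Mir669, 23 of Mir466, 14 of Mir467 and 5 of Mir297. Of these, 23 had a line in the table. Another 10 family genes are annotated elsewhere, of which 2 were measured, Mir467f on chromosome 11 and Mir466i on chromosome 13. The other 56 family genes had no line under their own gene number, so the table covers a part of each family. Whether their transcripts contributed to the lines that were measured was not tested.

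RefSeq mature sequences were matched for these 2 members outside the cluster. They are given with those of 6 further family genes outside the cluster, which had no line in the table, to show the alternating bases in these sequences. No mature sequence from inside the cluster or of Mir297 was matched, so how alike the cluster copies are was not tested. The sequences run 5′ to 3′, and capitals mark the seed, bases 2 to 8. Positions are on GRCm38.p6.
mmu-miR-466i-3p (chr13:17747552-17747573, plus strand, measured): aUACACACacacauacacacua
mmu-miR-467f (chr11:69635419-69635439, minus strand, measured): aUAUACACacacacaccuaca
mmu-miR-466q (chr3:28419988-28420007, plus strand): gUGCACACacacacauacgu
mmu-miR-467g (chr5:34732872-34732892, minus strand): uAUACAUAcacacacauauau
mmu-miR-466k (chr3:85467396-85467418, plus strand): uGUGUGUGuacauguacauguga
mmu-miR-466j (chr10:60960802-60960824, plus strand): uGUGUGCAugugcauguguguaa
mmu-miR-669n (chr3:115979905-115979924, plus strand): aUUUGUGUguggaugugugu
mmu-miR-467h (chr9:115381898-115381919, plus strand): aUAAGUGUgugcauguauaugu

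Stretches of alternating C and A or of alternating U and G recur in these sequences. Steps from 1 base to the next that read CA, AC, UG or GU made up 50.0% to 78.9% of all steps in these 8 sequences (median 69.9%). The median over the 1730 other mature mouse microRNAs of the RefSeq table was 28.6%, and 2.37% of them reached the lowest value among the 8. The 8 seeds were all different. The probes behind the lines were not analysed here, and whether they also bind other copies or repeats was not tested.

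The deposited values were log2 values from RMA, in which the 12 arrays share 1 distribution, between 5.07 and 14.10 with its median at 5.73. Correlations between arrays over all genes ran from 0.993 to 0.998. The retina was recognisable by its photoreceptor markers, whose mean lay between 12.86 and 12.95 in diabetic and between 12.91 and 12.99 in control retinas, all 6 above the array median. Trophoblast markers (Prl3d1, Tpbpa and Gcm1) averaged 5.26 to 5.31 in diabetic and 5.25 to 5.29 in control retinas, and none of the 3 was above the array median. The numbers given to the animals in the labels do not interleave between the groups. Should they stand for cohorts, the effect of cohort and that of diabetes cannot be told apart. In bulk tissue, fewer cells of a type and less RNA per cell cannot be told apart either.

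The members were split into bright and dim lines at the array median of 5.73. Some lay close to this cut, with means of 5.78 for Mir669h above it and 5.72 for Mir669j below it. Of the 25, 8 had a mean over the 12 arrays above the array median (32.0%), against 28.0% of the 510 other microRNA genes. These 8 were Mir466h, Mir466d, Mir467e, Mir669m-1, Mir297a-4, Mir467c, Mir669a-3 and Mir669h, so each family had at least 1. At the other end, 11 members lay under 5.35, the 25th percentile of an array, where the scale has little room and a difference is compressed. Because probes differ in how strongly they bind, the levels do not rank the RNAs by amount. Lines for microRNAs known to be abundant in the retina were not bright throughout: of the sensory-cell cluster Mir183, Mir182 and Mir96, the means over 12 arrays were 5.28, 5.54 and 6.05. Those of Mir204 and of Mir124a-2, microRNAs of the pigment epithelium and of neurons, were 6.74 and 6.76. Whether the lines measure mature microRNAs, hairpins or longer transcripts was not tested.

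**Figure D1:**
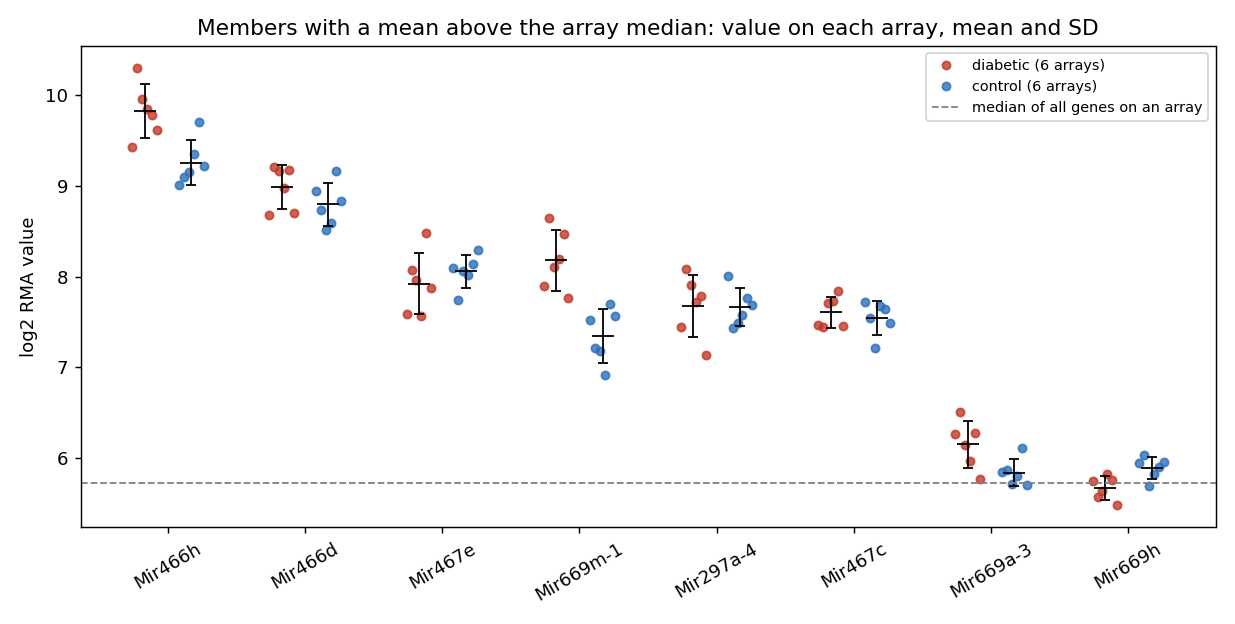
Log2 RMA values (y axis) of the 8 members with a mean above the array median, in order of that mean, with 1 point per array, diabetic left of control, and bars for the mean and SD of 6 arrays. The groups are apart for Mir669m-1, overlap by 1 control array for Mir466h and overlap widely for Mir466d, Mir467e, Mir297a-4 and Mir467c.

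In the Mir669 family, Mir669m-1 (gene 100316701) was the member that led to the choice of these families. Its lowest, median and highest values were 7.77, 8.15 and 8.65 in diabetic retinas, against 6.92, 7.37 and 7.70 in control retinas. All 6 diabetic arrays lay above all 6 control arrays, by a margin that is small beside the spread within each group. The means were 8.18 ± 0.33 in diabetic and 7.35 ± 0.29 in control retinas (SD, n = 6 each), a log2 difference of 0.83 ± 0.17 (SE) or 1.78-fold. This was the highest difference among the 535 microRNA genes and number 3 among all 24570 genes, which is how it came to be noticed. Leaving out 1 array at a time gave differences from 0.74 (without diabetic replicate 2) to 0.92 (without diabetic replicate 6).

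Mir669m-2 (gene 100316834), the gene that follows Mir669m-1 in the cluster and bears the same name up to the copy number, did not read like it. Its lowest, median and highest values were 5.14, 5.26 and 5.29 in diabetic and 5.16, 5.18 and 5.23 in control retinas. The line lay near the bottom of the scale and the groups overlapped, with a difference of 0.04 ± 0.03. Similar names thus did not go with similar values here. How many probes of the 2 genes are shared was not analysed here, and hairpin sequences of the pair were not used.

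Other Mir669 members differed by less. Mir669a-3 read 5.77, 6.20 and 6.51 (lowest, median, highest) in diabetic and 5.70, 5.83 and 6.11 in control retinas, a difference of 0.31 ± 0.11. Mir669g read 5.43, 5.58 and 5.75 in diabetic and 5.23, 5.38 and 5.48 in control retinas, a difference of 0.21 ± 0.06. For both lines 4 of 6 diabetic arrays lay above all control arrays, and the groups overlapped in the rest. Mir669c differed by 0.14 ± 0.06, with group means of 5.76 and 5.62 in diabetic and control retinas.

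Mir669h went the other way. It read 5.48, 5.70 and 5.83 in diabetic and 5.69, 5.92 and 6.03 in control retinas, a difference of -0.22 ± 0.07, with overlapping groups. This was the lowest difference of all 25 members. Mir669e, close to the bottom of the scale, read 5.21 to 5.26 in diabetic and 5.17 to 5.20 in control retinas. Its groups did not overlap, although the difference was 0.04 ± 0.01. The remaining 4 members of the family, Mir669j, Mir669k, Mir669b and Mir669i, differed by -0.03 to 0.03. In all, 8 of 11 Mir669 members had values above 0 and 3 below, with a median of 0.04, against a median of -0.00 over all genes and 0.00 over the other microRNA genes.

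In the Mir466 family, Mir466h (gene 100124446) had both the highest level and the highest difference. It read 9.43, 9.82 and 10.30 (lowest, median, highest) in diabetic and 9.01, 9.19 and 9.71 in control retinas. Control replicate 5, at 9.71, lay among the diabetic arrays, and without it the groups did not overlap. The means were 9.83 ± 0.30 in diabetic and 9.26 ± 0.25 in control retinas (SD, n = 6 each), a difference of 0.57 ± 0.15 or 1.48-fold. Among the 535 microRNA genes this difference was number 2 after that of Mir669m-1.

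Mir466g (gene 100124495), the gene just before Mir466h in the cluster, read 5.22, 5.26 and 5.37 in diabetic and 5.10, 5.14 and 5.25 in control retinas. Its difference was 0.13 ± 0.03, at a level where only 9.14% of all genes had lower means. As for Mir466h, control replicate 5 was the only control array within the diabetic range. Mir466d, bright at a mean of 8.89, read 8.68 to 9.21 in diabetic and 8.52 to 9.17 in control retinas, a difference of 0.19 ± 0.13 within the spread of both groups.

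Mir466n differed by 0.04 ± 0.06. The other 4 Mir466 members, Mir466i, Mir466p, Mir466b-2 and Mir466o, had means of 5.09 to 5.19, the bottom of the scale, and differences of -0.01 to 0.02. Over the family, 5 of 8 were above 0 and 3 below, with a median of 0.03. Apart from Mir466h, the family differed by -0.01 to 0.19. Of the 8, 5 lay under the 25th percentile of an array, where a difference is compressed. Mir466g, with its difference of 0.13 ± 0.03, was 1 of these 5.

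In the Mir467 family the groups overlapped for all 4 members. Mir467e, with a mean of 7.99, read 7.57, 7.92 and 8.48 in diabetic and 7.75, 8.08 and 8.30 in control retinas, a difference of -0.14 ± 0.14. Mir467c, with a mean of 7.58, read 7.45, 7.59 and 7.84 in diabetic and 7.21, 7.60 and 7.72 in control retinas, a difference of 0.06 ± 0.10. Both bright lines overlapped along most of their range. Mir467f, the member on chromosome 11, differed by -0.00 ± 0.03, and Mir467d by -0.01 ± 0.01.

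The Mir297 family had 2 measured members. Mir297a-4 read 7.13, 7.76 and 8.08 in diabetic and 7.44, 7.63 and 8.01 in control retinas, a difference of 0.02 ± 0.15. Mir297b read 5.25, 5.37 and 5.53 in diabetic and 5.40, 5.50 and 5.54 in control retinas, a difference of -0.10 ± 0.04. The bright line was level between the groups within an error that leaves room for a moderate change, and the dim one was lower in diabetic retinas with overlap.

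**Figure D2:**
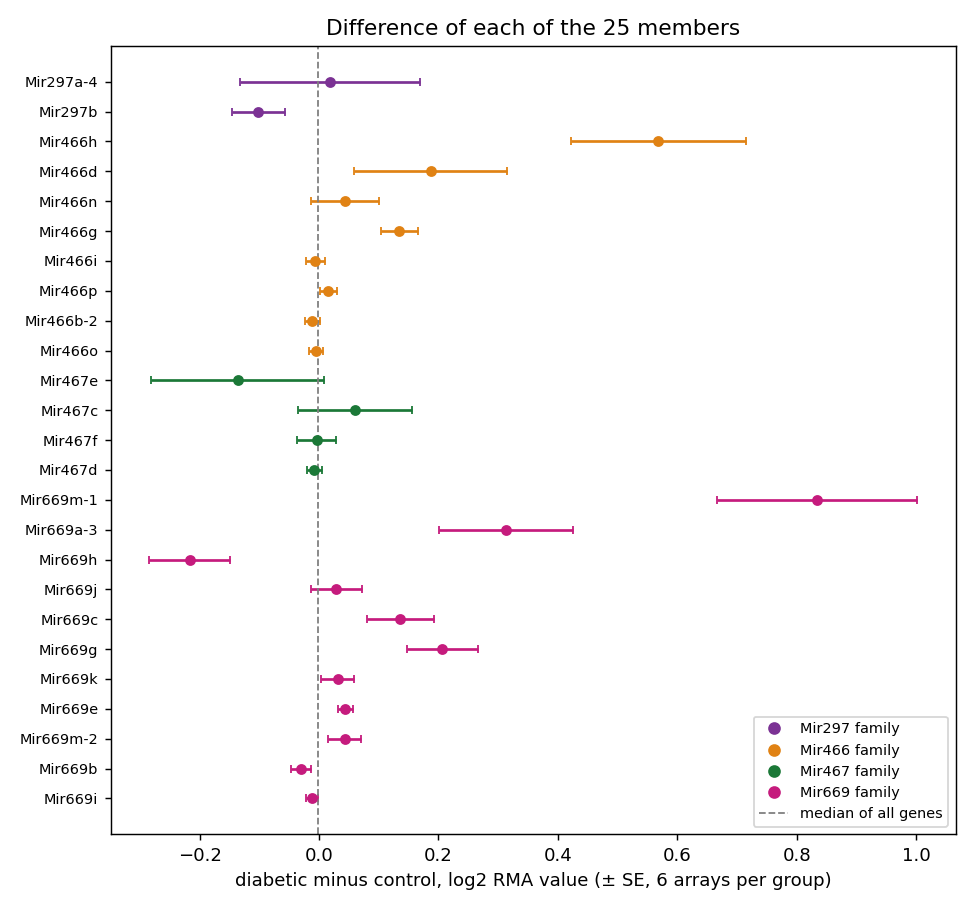
Difference between diabetic and control retinas (x axis, log2 RMA value, ± SE, 6 arrays per group) for each of the 25 members, grouped by family and ordered by mean level within a family. Mir669m-1 (0.83) and Mir466h (0.57) lie far to the right, and Mir669h (-0.22) lies farthest to the left.

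Across all genes, 3.24% passed limma's test at an adjusted p under 0.05 (Benjamini-Hochberg over the 24570 genes). Of the 25 members 2 passed, Mir669m-1 and Mir466g, both higher in diabetic retinas, and 1.47% of all genes passed and were higher. Of the other microRNA genes 2.94% passed in either direction. The groups did not overlap for 2 members, Mir669m-1 and Mir669e, and for 2.84% of all genes. Both were higher in diabetic retinas, and 1.22% of all genes were without overlap and higher. Neither count says anything about the families. Mir669m-1 was chosen from this contrast, so its place in both counts follows the choice. The call of Mir466g held without diabetic replicate 6 or control replicate 5 and was lost in the other 10 of 12 runs that left out 1 array. That of Mir669m-1 held in 8 of these 12 runs. With the replicate number as a block in the fit, Mir466g kept its call and Mir669m-1 lost it.

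Taking the 8 bright members alone, 6 had values above 0 and 2 below, with a median difference of 0.12. Without Mir669m-1, 5 of 7 were above 0 and the median was 0.06. Leaving Mir669m-1 out does not undo the choice, since other bright members moved with it from array to array. Members are not replicates, and nothing is read from these signs. The 143 other microRNA genes above the array median were split into 69 above and 74 below 0, with a median of -0.01. The bright members had differences from -0.22 to 0.83, and other bright microRNA genes from -0.55 to 0.51.

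**Figure D3:**
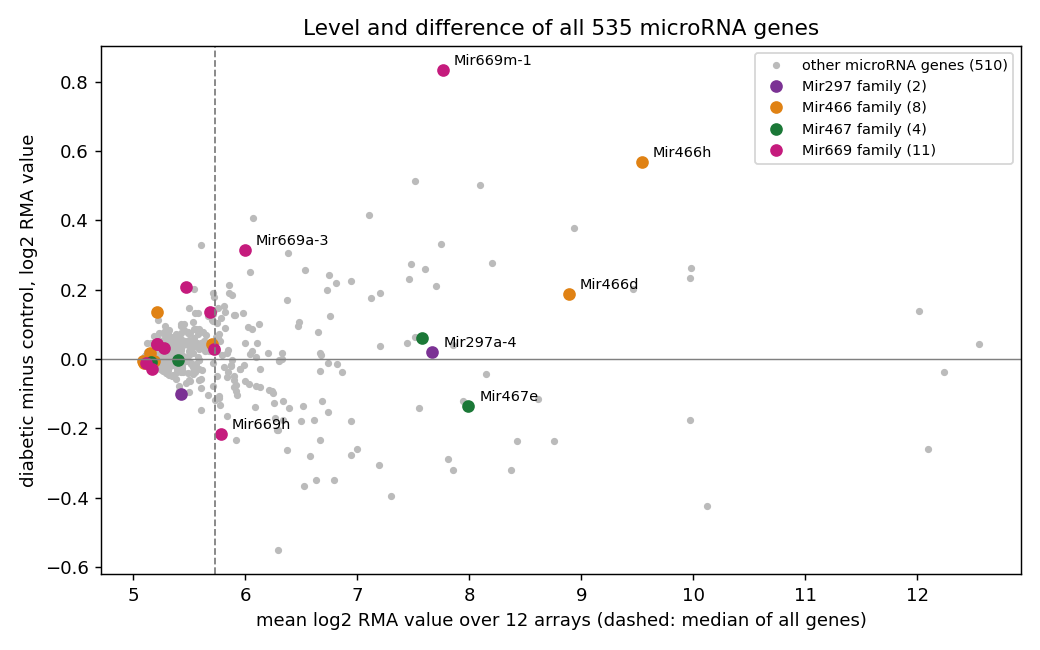
Mean log2 RMA value over 12 arrays (x axis) and diabetic minus control difference (y axis) of all 535 microRNA genes, with the 25 members coloured by family and the 510 others in grey. The dashed line is the array median (5.73). Mir669m-1 (0.83) and Mir466h (0.57) are the highest points of the plot.

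The order of the genes inside Sfmbt2 did not sort bright from dim lines. Numbered from 1 to 71 by position, Mir466d, Mir669m-1, Mir669m-2 and Mir466n were neighbours at places 60 to 63, with means of 8.89, 7.76, 5.21 and 5.70. Mir466g and Mir466h stood at places 65 and 66, with means of 5.22 and 9.54. Bright lines thus stood close to dimmer ones. Over all 71 family genes inside Sfmbt2, measured or not, the median gap between neighbours was 210 bases. The 8 measured members between places 57 and 66 included Mir669m-1, the highest difference, and Mir297b at -0.10. Among the 3 at the end, from place 69 to 71, Mir297a-4 differed by 0.02, Mir669i by -0.01 and Mir669h by -0.22.

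**Figure D4:**
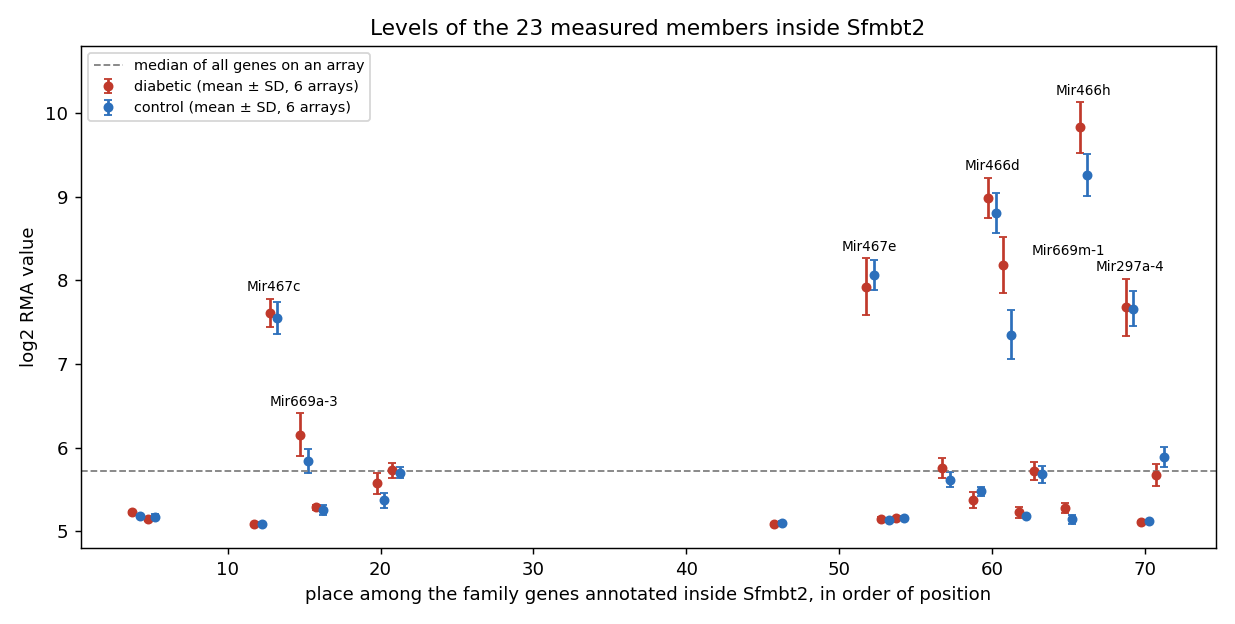
Log2 RMA values (y axis, mean ± SD of 6 arrays, diabetic left of control) of the 23 measured members inside Sfmbt2, by their place among the 71 annotated family genes (x axis). Bright members stand beside members near 5.1, and the gap between diabetic and control means is widest at Mir669m-1 and Mir466h.

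The host gene read low and did not pass the test. Sfmbt2 read 5.37, 5.42 and 5.46 (lowest, median, highest) in diabetic and 5.39, 5.45 and 5.52 in control retinas, below the array median of 5.73. Its difference was -0.04 ± 0.02 (limma, adjusted p = 0.337), with overlapping groups. A host line this dim can hide a change, so the missed call does not show that Sfmbt2 was unchanged. Within groups, deviations of Sfmbt2 and Mir669m-1 from their group means had a Pearson r of -0.54 over the 12 arrays. The r with Sfmbt2 was -0.80 for Mir466d and -0.23 for Mir466h.

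Deviations from the group means do not depend on the contrast that led to Mir669m-1, and they showed which lines moved together from animal to animal. Over the 12 arrays, on each of which all lines share 1 RNA sample and 1 hybridization, Mir669m-1 was, among the members, most like Mir466d (r = 0.86), Mir466n (0.82), Mir297a-4 (0.78), Mir669g (0.78) and Mir466g (0.73). For Mir466h the value was 0.58 and for Mir669m-2 it was 0.14. The likeness thus crossed family names and was low for the copy with the nearest name. That copy, Mir669m-2, lay near the bottom of the scale, where a difference is compressed. Whether this lowered its value was not tested. Mir669j had the lowest value, -0.63.

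Over the 28 pairs of bright members the median r was 0.48, and 26 pairs (92.9%) were above 0. Over the 10153 pairs of other bright microRNA genes the median was 0.08, with 59.3% above 0. Among the 17 members at or under the array median it was 0.06. These values are descriptions across genes of the same arrays and carry no test. Over the whole table, the genes most like Mir669m-1 were the long noncoding RNAs E230016M11Rik (0.92) and Gm16982 (0.92), then Cd164l2 (0.91), the centromere protein gene Cenpc1 (0.90) and Gprin2 (0.90). High values are sure to occur among so many genes. The differences of these 5 genes between the groups ran from -0.17 to 0.09, with adjusted p from 0.130 to 0.880 in limma.

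**Figure D5:**
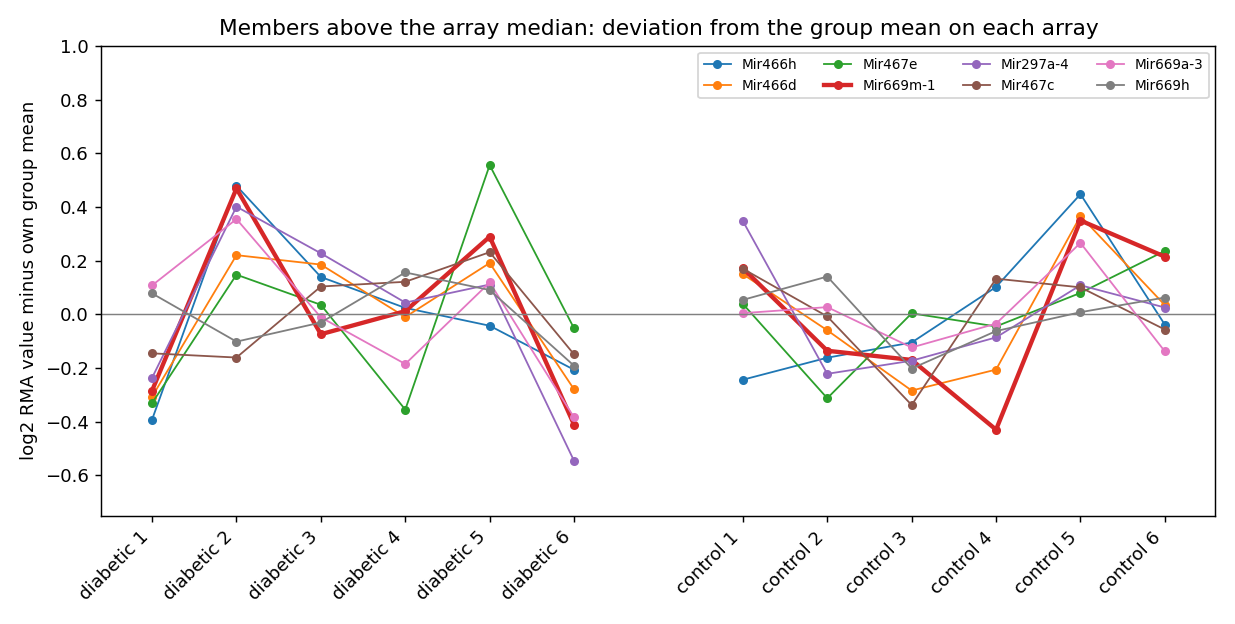
Deviation from the own group's mean (y axis, log2 RMA value) on each of the 12 arrays (x axis) for the 8 members above the array median, with lines joining the values of 1 member within a group and Mir669m-1 drawn thick. Most members are above their mean in diabetic replicate 2 and control replicate 5 and below it in diabetic replicate 6, and the arrays of a group have no order.

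Single arrays stood out in these deviations. Among the diabetic arrays, replicate 2 was the highest for 5 of the 8 bright members and replicate 6 the lowest for 4. Averaged over the 8, the deviation was 0.23 in diabetic replicate 2 and -0.28 in diabetic replicate 6, and 0.22 in control replicate 5. Diabetic replicate 6 also had the highest mean of lens markers (8.50, with 5.62 to 7.62 in the other diabetic and 5.85 to 7.04 in control retinas) and of pigment epithelium markers (8.36, with 7.02 to 7.60 in the other diabetic and 7.00 to 7.59 in control retinas). Lens markers were next highest in diabetic replicate 2 (7.62), the array with the highest value of Mir669m-1. Mueller glia markers ran opposite to the deviations on these arrays. Their mean was lowest in diabetic replicate 2 (11.26) and, among controls, in replicate 5 (11.34). It was highest in diabetic replicate 6 (11.62) and, among controls, in replicate 3 (11.64), where the averaged deviation was -0.17. Rlbp1 was in both the Mueller glia and the pigment epithelium list, so the means of these lists are not independent. Whether cell content bears on the deviations was not tested. Without diabetic replicate 6 the difference of Mir669m-1 was 0.92 and without diabetic replicate 2 it was 0.74. Of the 5 lens markers 3 and of the 5 pigment epithelium markers 4 were above the array median. Red blood cell markers, with 2 of 3 measured, lay between 5.22 and 5.31 in diabetic and between 5.24 and 5.30 in control retinas, none above the array median.

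The genes that process microRNAs and act with them were bright in the retina but did not pass the test. Of 24 listed genes, 23 had means above the array median, and 0 passed limma's test over all genes in either direction. At an unadjusted p under 0.05 there were 12, or 50.0%, against 21.0% of all genes. All genes are an unlike background for this bright list, since only 50.4% of them had means above the array median. Nothing is read from these shares. By sign, 17 of the 24 listed genes were higher and 7 lower, with a median difference of 0.10. Drosha, the nuclease that cuts hairpins from primary transcripts, differed by -0.02 ± 0.04 (adjusted p = 0.874), and its partner Dgcr8 by 0.13 ± 0.06 (adjusted p = 0.256). Dicer1, which cuts the loop from the hairpin, differed by 0.14 ± 0.06 (adjusted p = 0.168), and Ago2, the slicing Argonaute, by 0.03 ± 0.04 (adjusted p = 0.706). The lowest adjusted p of the list was 0.0588. These steps serve all canonical microRNAs and not the Sfmbt2 cluster alone.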

How the data were processed

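Whole-retina RNA was labelled as biotinylated cRNA by the Affymetrix procedure, per the labels' protocols. Deposited values are on a log2 scale and come from RMA, per the submitters' processing notes. Version, array name, probe sets and build are not given in the sources used here. Sorted values of all arrays were identical (largest difference 0), so a shift of most genes would not be visible. Of 24973 lines, 24015 were named by the platform annotation and 559 by RefSeq, 399 had no name, and 4 symbols on several lines kept the brightest, leaving 24570 genes. Members were matched by platform symbol. Limma 3.58.1 (R 4.3.3) was fitted to all genes, diabetic minus control, two-sided, no dim filter, Benjamini-Hochberg, threshold 0.05, and was tested on simulated data. The number of arrays limits the precision. Animals are separate biological replicates per the labels.

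Members and lists were chosen with earlier results of these data known. Besides all members, the rule for names took the host, 4 processing genes and others past the threshold, retinal microRNAs and the 5 genes most like Mir669m-1. Mir124a-2 stood in for Mir124-1. Of 15 retinal microRNAs 14 were measured and 0 passed by limma (5 at an unadjusted p under 0.05). Alternatives covered variance model, weights, replicate block, dim filter, duplicate lines, group medians and each array left out.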

Additional observations from a re-analysis of the deposited data

Results flagged for a closer look

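In 5 of 80 groups of 6 arrays (6.25%), 1 array stood apart, judged by its gap to the nearest other array as a ratio of the group's range, where chance gives about 1 in 20. Diabetic replicate 6 was low for Mir466n (5.51, ratio 0.700). In controls, replicate 5 was high for Mir466g (5.25, ratio 0.709), replicate 1 was high for Mir467f (5.52, ratio 0.673) and for Mir669b (5.24, ratio 0.699), and replicate 4 was high for Mir669j (5.84, ratio 0.747). All 5 lines lay below the array median of 5.73 on average.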

How the results depend on the processing

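The count of 2 members past the threshold, all higher and 0 lower, was 5 with a mean-variance trend (adding Mir466h, Mir669g and Mir669e). It was 3 with array weights (adding Mir466h). With dim genes left out it stayed at 2, but these were Mir669m-1 and Mir466h, since Mir466g was among the genes left out. It was 1 with the replicate block (Mir466g). With 1 array left out it was 0 to 3 (0 without diabetic replicate 3 or 4 or control replicate 2 or 3). The count of all genes, 797, was 506 with the replicate block and 325 to 835 with 1 array left out. Same-numbered arrays had residual correlations from -0.16 to 0.17, and 1 of 6 diabetic arrays correlated best with its own number, so the numbers were not taken as pairs. Non-overlapping members numbered 2 to 4 with 1 array left out, 4 without control replicate 5. Processing genes numbered 0 to 2, with 2 without control replicate 5 and 1 without control replicate 1 or diabetic replicate 2. Every such run kept Mir669m-1 at 0.74 or more, and Sfmbt2 from -0.05 to -0.03. Family medians stayed within 1 SD of arrays, from -0.09 to 0.02 for Mir297, 0.02 to 0.05 for Mir466, -0.02 to 0.00 for Mir467 and 0.03 to 0.06 for Mir669. With 1 array left out, Mir297a-4 ran from -0.06 to 0.13 and Mir467c from -0.01 to 0.09. Averaging members with identical hairpins was not run, since hairpins of the cluster were not used here. Dim lines limit what could be detected. Why the counts moved was not tested.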
